A study of Rattus norvegicus with 120 samples.

Results

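The effect of BT2 + Empagliflozin, given together in chow, was set in heart against its effect in kidney of obese ZSF1 rats. The measure was an interaction, the log2 fold change of combination over vehicle in heart minus the same in kidney, so a positive value means that the effect was higher in heart. The contrast used 39 of the 120 libraries of the series. They were 10 of combination hearts and 10 of vehicle hearts, with 10 of combination kidneys and 9 of vehicle kidneys, all from obese rats of study B aged 30 weeks. Vehicle kidney replicate 8, with 776178 counts, was left out. All of these rats carry the obese ZSF1 genotype, in which the leptin receptor does not work, so no lean group enters the contrast. Set beside it are BT2 alone against vehicle in study A (39 libraries) and the combination against empagliflozin alone in study B (40 libraries). Those libraries too are from obese ZSF1 rats aged 30 weeks. The series text gives 10 rats per condition and speaks of whole heart and of whole kidney and kidney cortex, while the labels call every renal sample kidney. The labels used here give no dose. They do not say whether a heart and a kidney of the same replicate number came from one rat. Of 30560 genes, 11655 passed the count filter in both organs and were tested.

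BT2 inhibits BDK, a mitochondrial kinase made from Bckdk that keeps the branched-chain ketoacid dehydrogenase inactive. This mitochondrial complex commits leucine, isoleucine and valine to breakdown, and the phosphatase encoded by Ppm1k switches it on. Both enzymes also act on ATP-citrate lyase, which supplies fat synthesis. Empagliflozin inhibits SGLT2, encoded by Slc5a2, the transporter that reclaims most filtered glucose in the proximal tubule and that heart muscle hardly expresses. Heart muscle and proximal tubule both burn fatty acids, under the control of the nuclear receptor PPARα, while SREBP-1, encoded by Srebf1, drives the genes of fat synthesis.

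The libraries held 7452585 to 15528177 counts in combination hearts, 7330228 to 21751777 in vehicle hearts, 7781019 to 22778727 in combination kidneys and 8358129 to 19646259 in vehicle kidneys. Organ identity was checked with defining genes. Umod, made in the thick ascending limb, was at no more than 1.02 counts per 1000000 total counts in hearts and at 1971 to 4956 in kidneys, and Myh6, the atrial and ventricular myosin of the rat heart, at 4752 to 11798 in hearts. Some libraries carried another tissue's transcripts or, among hearts, a high level of an atrial transcript. Combination kidney replicate 7 held the cardiac actin Actc1 at 258 counts per 1000000 total counts, against a median of 1.14 over all kidney libraries of the series, combination kidneys 1, 4 and 5 held the liver albumin Alb, combination heart 9 held the skeletal myosin Myh4, and combination hearts 6 and 8 with vehicle hearts 4, 5, 7 and 10 held the atrial light chain Myl7 at over 5 times the median of all heart libraries. These 11 libraries are called the set-aside libraries, since results are also given without them. Whole heart includes the atria, so a high Myl7 level marks no foreign tissue. How much atrium each heart sample held was not tested. Leaving the set-aside libraries out also leaves fewer libraries for each test. Slc5a2, Slc5a1, Nppa, Nppb and Havcr1 did not pass the count filter in both organs. Libraries were made on 2 plates, each with replicates of every group, and the plate was a term of each test.

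The combination changed many more genes in kidney than in heart. By edgeR's quasi-likelihood test at an adjusted p below 0.05, the effect was called for 602 genes in heart (5.17% of those tested), 405 of them higher (3.47%) and 197 lower (1.69%), and for 3580 in kidney (30.7%), 1772 higher (15.2%) and 1808 lower (15.5%). The organ difference itself was called for 2325 genes (19.9%), of which 1234 had the higher effect in heart (10.6%) and 1091 the lower (9.36%). Of the 2325, 1669 were called in kidney and not in heart, 210 in heart and not in kidney, and 333 in neither organ alone. Another 100 (0.858% of those tested) were called in both organs in opposite directions, 70 of them (0.601%) up in heart and down in kidney, and 13 in both in the same direction. In all, 151 genes (1.3%) were called in both organs in the same direction, and for 138 of these the organ difference was not called. Across the tested genes, which are not independent of each other, the heart effect and the kidney effect had a Pearson correlation of 0.0236. The median absolute log2 fold change was 0.109 in heart and 0.162 in kidney, and the median standard error was 0.104 in heart and 0.0985 in kidney.

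Without the set-aside libraries 75 genes were called in heart, 3218 in kidney and 1194 for the organ difference, with 7 and 6 hearts and 6 and 9 kidneys left. Plate 1 alone gave 89, 2212 and 950, and plate 2 alone 24, 1195 and 380.

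**Figure D1:**
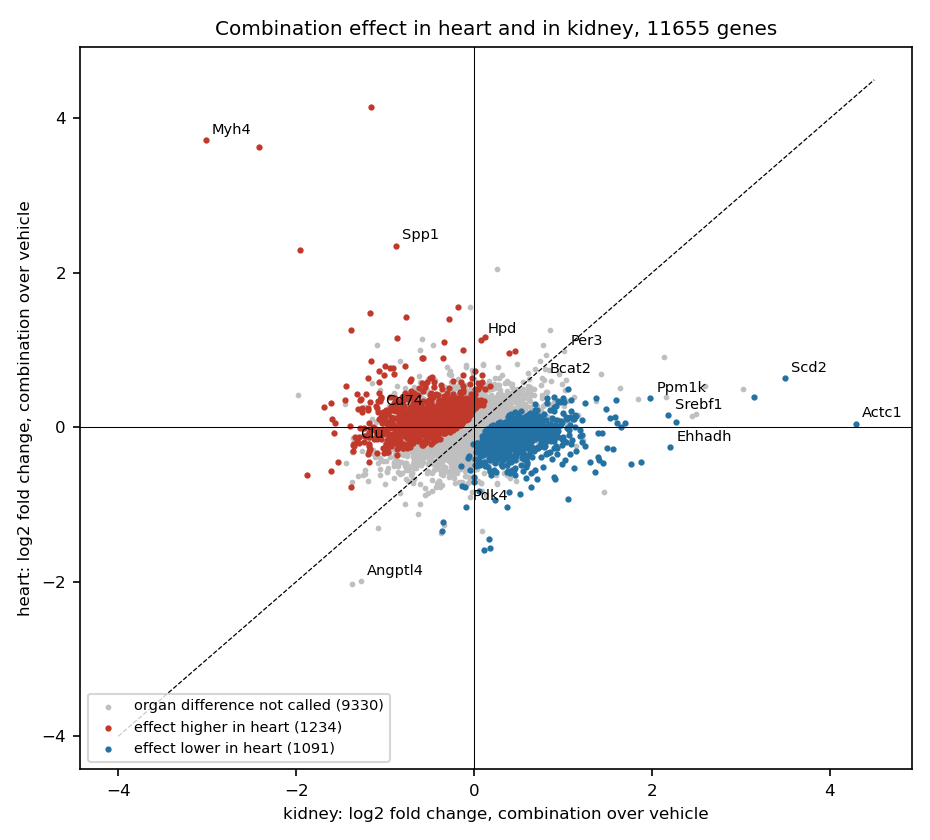
Log2 fold change of combination over vehicle in heart (vertical axis) against that in kidney (horizontal axis), 1 point for each of 11655 genes, with the dashed line where both are equal. Red points (1234) had a called organ difference with the higher effect in heart and blue points (1091) with the lower. Of these coloured points 1669 were called in kidney and not in heart, and 210 in heart and not in kidney.

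Fat synthesis genes rose in kidney, and their organ difference was called below zero. Of 14 lipogenesis genes tested, 1 rose and 1 fell in heart, and 10 rose and 0 fell in kidney. The organ difference was lower for 10 and higher for 0, against 9.36% and 10.6% of all genes tested. Of all genes 3.47% rose and 1.69% fell in heart, and 15.2% rose and 15.5% fell in kidney. The list's median log2 fold change was -0.019 in heart and 0.50 in kidney, and that of the organ difference -0.51, against -0.0012, -0.0075 and 0.02 over all genes tested.

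Scd2 (ENSRNOG00000046005), a desaturase that makes monounsaturated fatty acids, led the list. Its lowest, median and highest level was 20.8, 32.9 and 41.9 CPM in combination hearts, against 14.9, 20.1 and 26.0 CPM in vehicle hearts. The kidney values were 718, 938 and 1719 CPM in combination kidneys, against 68.2, 97.1 and 126 CPM in vehicle kidneys. CPM stands for counts per 1000000 within the tested genes, scaled within each organ, so levels are compared within an organ. All 10 combination kidneys were above all vehicle kidneys, while the groups overlapped in heart. The log2 fold change was 0.64 ± 0.13 in heart and 3.50 ± 0.13 in kidney, and the organ difference -2.86 ± 0.18 (edgeR adjusted p = 7.50e-15), with -3.03 on plate 1 and -2.72 on plate 2. The heart rise did not pass without the set-aside libraries (edgeR adjusted p = 0.0897).

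Srebf1 (ENSRNOG00000003463), the transcription factor gene of the pathway, was at 6.51, 9.52 and 14.7 CPM in combination hearts, against 6.30, 8.26 and 12.8 CPM in vehicle hearts. Its kidney levels were 132, 216 and 297 CPM in combination kidneys, against 33.6, 46.2 and 55.1 CPM in vehicle kidneys. The combination and vehicle kidneys did not overlap and the hearts did. Its organ difference was -2.02 ± 0.17 (edgeR adjusted p = 2.43e-11), from 0.16 in heart and 2.19 in kidney. Fads2 (ENSRNOG00000020440), the desaturase that starts the synthesis of long polyunsaturated fatty acids, had an organ difference of -2.33 ± 0.20, and Pnpla3, a lipid droplet acyltransferase gene and known SREBP-1 target, one of -1.46 ± 0.21. Heart levels of Fads2 were at most 4.16 CPM. Smaller organ differences were called for Gpam at -0.85, Me1 at -0.84, Fasn at -0.54 and Acss2 at -0.49. Acly, the ATP-citrate lyase gene, was not called in either organ, at -0.15 in heart and 0.041 in kidney.

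Cholesterol genes went the same way in smaller number, with 0 of 18 called in heart and 9 higher in kidney by edgeR. In heart 5 of them were at an unadjusted p under 0.05, and 0 were called by DESeq2 or limma-voom. Their organ difference was lower for 6 and higher for 1, against 9.36% and 10.6% of all genes tested. Of all genes 5.17% were called in heart and 15.2% rose in kidney. Insig1, which holds SREBP in the endoplasmic reticulum and is itself an SREBP target, was at 64.6, 76.6 and 98.5 CPM in combination kidneys, against 32.8, 41.7 and 45.2 CPM in vehicle kidneys. These groups did not overlap, and the organ difference was -1.14 ± 0.11 (edgeR adjusted p = 1.66e-09). Srebf2, the regulator of cholesterol synthesis, followed at -0.40 ± 0.12, which did not pass without the set-aside libraries (edgeR adjusted p = 0.139). The exception was Mvd, a decarboxylase of the mevalonate part, at 0.58. Leaving out the set-aside libraries, the organ difference was lower for 8 of the lipogenesis genes and for 3 of the cholesterol genes, and the call of Mvd was lost, as it was on each plate alone.

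Peroxisomal fatty acid oxidation rose in kidney with no called gene in heart. Of 17 genes 0 were called in heart by edgeR, and 13 rose and 0 fell in kidney. For all genes tested these shares were 5.17%, 15.2% and 15.5%. The list's organ difference was lower for 11 and higher for 0, against 9.36% and 10.6% of all genes. At an unadjusted p under 0.05 the heart count was 1, and by DESeq2 and limma-voom 0. The median log2 fold change was -0.019 in heart and 0.40 in kidney. Ehhadh (ENSRNOG00000001770), the peroxisomal bifunctional enzyme and a PPARα target, was at 4.25, 8.20 and 15.4 CPM in combination hearts, against 6.48, 12 and 14.5 CPM in vehicle hearts. In kidneys the corresponding values were 369.7, 449 and 567 CPM in combination kidneys, against 73.9, 97.8 and 129 CPM in vehicle kidneys. Each combination kidney exceeded every vehicle kidney, and in heart the median of the combination group was the lower one, with overlap. For Ehhadh the organ difference was -2.46 ± 0.20 (edgeR adjusted p = 2.43e-11), from -0.26 in heart and 2.21 in kidney, and -2.43 and -2.54 on the 2 plates.

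Crot (ENSRNOG00000006779), which exports shortened acyl chains from the peroxisome, was at 8.50, 12.5 and 16.1 CPM in combination hearts, against 7.70, 14 and 16.7 CPM in vehicle hearts. Levels in kidney were 167, 192 and 261 CPM in combination kidneys, against 59.8, 70.6 and 91.3 CPM in vehicle kidneys, without overlap. Its organ difference was -1.51 ± 0.15. Pex11a, which drives peroxisome division, followed at -0.99 ± 0.13, and Cat, catalase, was at -0.72. Acox2, the oxidase of branched chains, was at -0.51. Without the set-aside libraries the organ difference was lower for 8 of the 17, on plate 1 for 5 and on plate 2 for 4.

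The promoter of Ehhadh is printed because, of 102 named genes matched to a RefSeq promoter, it was the one whose window held either of 2 motifs searched on both strands. The motifs were TCACNCCAC, the sterol response element, and AGGTCANAGGTCA with at most 1 mismatch, the direct repeat bound by PPAR. The window was the 250 bases before the gene's start in RefSeq, build GRCr8, chr11:92746159-92746408, plus strand. Capitals mark the TCACNCCAC match, which lies on the other strand and starts at base -204 from the start.
Ehhadh: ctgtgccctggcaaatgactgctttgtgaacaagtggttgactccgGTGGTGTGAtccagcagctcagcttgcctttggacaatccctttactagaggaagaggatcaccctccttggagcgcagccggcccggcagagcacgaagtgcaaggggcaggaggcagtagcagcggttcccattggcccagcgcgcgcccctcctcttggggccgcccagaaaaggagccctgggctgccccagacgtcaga
TCACNCCAC was in 1.44% of 831 promoters of genes with the lower organ difference, in 1.19% of 922 with the higher and in 0.976% of all 27457 promoters. The direct repeat was in 0.241% of the lower, 0.217% of the higher and 0.386% of all. None of the 12 lipogenesis promoters matched either motif, and 2 of 15 peroxisomal promoters held the direct repeat. The matches describe these windows only.

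In mitochondrial fatty acid oxidation 1 of 19 genes rose in heart and 2 fell, while in kidney 11 rose and 1 fell. Between organs the effect was lower for 7 and higher for 2, against 9.36% and 10.6% of all genes tested. Of all genes 3.47% rose and 1.69% fell in heart, and 15.2% rose and 15.5% fell in kidney. Cpt1a, which loads long chains for entry into mitochondria, and Decr1, which handles unsaturated chains, were each called down in heart and up in kidney. Cpt1a had a log2 fold change of -0.32 ± 0.08 in heart and 0.28 ± 0.08 in kidney, and Decr1 -0.28 ± 0.07 in heart and 0.25 ± 0.07 in kidney. In heart neither call was kept without the set-aside libraries (edgeR adjusted p = 0.116 and 0.0799), while both organ differences were (edgeR adjusted p = 0.00119 and 0.00292). Acsl1, which activates long chains, was at -0.76 ± 0.13 for the organ difference. The carnitine carrier Slc22a5 went against the list, at 106, 120.4 and 139.6 CPM in combination kidneys, against 169, 183 and 216 CPM in vehicle kidneys. Those kidney groups did not overlap, and its organ difference was 0.66 ± 0.10 (edgeR adjusted p = 7.71e-06).

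PPAR targets outside oxidation split between the organs. Of 12 tested, 0 rose and 4 fell in heart, and 5 rose and 4 fell in kidney. Among all genes tested 3.47% rose and 1.69% fell in heart, and 15.2% rose and 15.5% fell in kidney. The organ difference was lower for 7 of the 12 and higher for 2, against 9.36% and 10.6% of all genes. Pdk4 (ENSRNOG00000009565), the kinase that shuts pyruvate out of oxidation, was at 186, 221 and 346 CPM in combination hearts, against 197, 509.8 and 657 CPM in vehicle hearts. Kidney levels were 27.1, 31.2 and 47.5 CPM in combination kidneys, against 27.0, 37.1 and 41.3 CPM in vehicle kidneys. All 10 combination hearts were below the vehicle median, with overlap, and the kidneys overlapped throughout. Its log2 fold change was -1.03 ± 0.13 in heart and -0.085 ± 0.14 in kidney, and the organ difference -0.94 ± 0.19 (edgeR adjusted p = 0.000515).

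Angptl4 (ENSRNOG00000007545), a secreted inhibitor of lipoprotein lipase, fell in both organs, to 2.81, 9.48 and 25.1 CPM in combination hearts, against 19.1, 38.8 and 70.3 CPM in vehicle hearts. The kidney values were 12.1, 23.4 and 30.0 CPM in combination kidneys, against 37.5, 56.3 and 76.5 CPM in vehicle kidneys, without overlap. The fold changes were -1.99 ± 0.21 in heart and -1.27 ± 0.19 in kidney, and their difference of -0.71 ± 0.28 did not pass (edgeR adjusted p = 0.0663). It stood at -1.57 on plate 1 and -0.056 on plate 2. Vnn1, a pantetheinase gene, and Plin5, a lipid droplet protein, rose in kidney, with organ differences of -1.10 ± 0.11 and -1.64 ± 0.28. Plin5 was low in kidney, at 0.97, 2.36 and 5.18 CPM in combination kidneys, against 0.47, 0.93 and 1.06 CPM in vehicle kidneys. Its highest kidney value was in combination kidney 7, a set-aside library. Acot1, a thioesterase whose near-identical copies can share reads, was at -1.28 ± 0.17, with heart levels of at most 3.69 CPM.

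**Figure D2:**
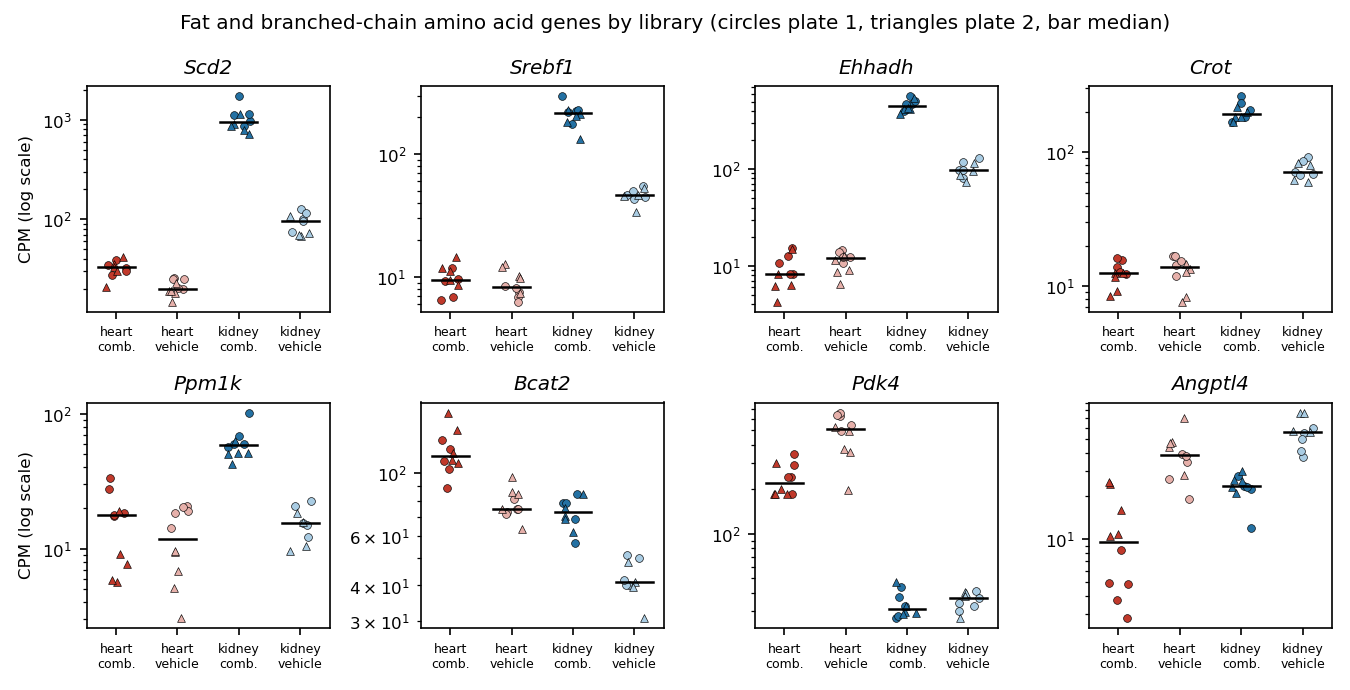
CPM on a log axis of 8 genes in each library of combination hearts, vehicle hearts, combination kidneys and vehicle kidneys, with circles for plate 1, triangles for plate 2 and a bar at the median. The kidney groups of Scd2, Srebf1, Ehhadh, Crot and Ppm1k are apart and their heart groups overlap, whereas Pdk4 is lower in combination hearts and overlaps in kidneys. CPM is scaled within each organ, so the 2 organs are not on one scale.

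In the BT2 target pathway most genes rose in kidney and fewer were called in heart, and for most of them no organ difference was called. Of 23 genes of branched-chain amino acid catabolism, 9 rose in heart and 0 fell, and 17 rose in kidney and 1 fell. Among all genes tested 3.47% rose and 1.69% fell in heart, and 15.2% rose and 15.5% fell in kidney. The organ difference was higher for 1 and lower for 2, or 13% of the list against 19.9% of all genes. The median log2 fold change was 0.23 in heart and 0.33 in kidney. Leaving out the set-aside libraries, 1 gene rose in heart and 15 in kidney.

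Bckdk (ENSRNOG00000019485), the target itself, is listed in the deposited tables under another symbol and was taken by its description. It was at 102, 118 and 129 CPM in combination hearts, against 92.2, 104 and 114 CPM in vehicle hearts. Its kidney levels were 153, 171 and 185 CPM in combination kidneys, against 134, 160.3 and 179 CPM in vehicle kidneys, and the groups overlapped in both organs. The log2 fold change was 0.16 ± 0.05 in heart (edgeR adjusted p = 0.0467) and 0.093 ± 0.05 in kidney (edgeR adjusted p = 0.172), with an organ difference of 0.071 ± 0.07. The heart call was lost in 22 of the 39 fits that each left out 1 library.

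Bcat2 (ENSRNOG00000020956), the mitochondrial transaminase of the first step, was at 88.9, 115 and 164 CPM in combination hearts, against 63.7, 75.0 and 96.7 CPM in vehicle hearts. In kidneys the corresponding values were 56.7, 73.0 and 84.4 CPM in combination kidneys, against 30.7, 41.1 and 51.5 CPM in vehicle kidneys, without overlap. It rose by 0.62 ± 0.09 in heart and 0.78 ± 0.09 in kidney, and the organ difference was -0.17 ± 0.13 (edgeR adjusted p = 0.377). Bckdha and Dbt, subunits of the dehydrogenase, rose by 0.33 and 0.38 in heart and by 0.39 and 0.50 in kidney, and the subunit gene Bckdhb by 0.27 in kidney. In heart the calls of Bckdha and Dbt were lost without the set-aside libraries (edgeR adjusted p = 0.378 and 0.0897), and that of Bcat2 was not (edgeR adjusted p = 0.00181).

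Ppm1k (ENSRNOG00000006893), the phosphatase that opposes BDK, stood apart from the list. It was at 5.63, 17.6 and 33.3 CPM in combination hearts, against 3.07, 11.9 and 20.8 CPM in vehicle hearts. Levels in kidney were 42.5, 58.2 and 102 CPM in combination kidneys, against 9.69, 15.4 and 22.5 CPM in vehicle kidneys. The kidney groups did not overlap, with 10 of 10 combination libraries above, and the heart groups did. The log2 fold change was 0.37 ± 0.19 in heart and 1.98 ± 0.19 in kidney, and the organ difference -1.61 ± 0.26 (edgeR adjusted p = 2.76e-05), with -1.73 and -1.50 on the 2 plates. Mmut, the mutase that feeds propionate carbon into the citric acid cycle, was at -0.53 ± 0.17. Bcat1, the cytosolic transaminase, went the other way, at 3.62, 5.22 and 12 CPM in combination kidneys, against 7.26, 18.3 and 43.2 CPM in vehicle kidneys, with an organ difference of 1.5 ± 0.40. Mmut and Bcat1 did not pass without the set-aside libraries (edgeR adjusted p = 0.127 and 0.0523).

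Most immune, injury and matrix genes listed fell in kidney, and in heart the matrix list alone among these had several that fell. Of 16 macrophage markers 0 were called in heart by edgeR, and 14 fell in kidney, where 15.5% of all genes fell. In heart 1 marker was at an unadjusted p under 0.05, and DESeq2 and limma-voom called 0. Between organs the effect was higher for 12 and lower for 0, against 10.6% and 9.36% of all genes tested. The median log2 fold change was 0.061 in heart and -0.87 in kidney. In bulk tissue fewer cells of a type and less RNA per cell cannot be told apart.

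Cd74 (ENSRNOG00000018735), the chaperone of MHC class II, was at 171, 264 and 347 CPM in combination hearts, against 142, 236 and 288 CPM in vehicle hearts. Kidney levels were 333, 421 and 539 CPM in combination kidneys, against 593, 928 and 1090.1 CPM in vehicle kidneys. Every combination kidney was below every vehicle kidney, and the hearts overlapped. Its organ difference was 1.28 ± 0.13 (edgeR adjusted p = 1.87e-09), from 0.20 in heart and -1.08 in kidney. C1qa (ENSRNOG00000012807), the complement component made by tissue macrophages, was at 15.7, 20.8 and 27.5 CPM in combination kidneys, against 28.0, 50.7 and 63.9 CPM in vehicle kidneys, without overlap, and its organ difference was 1.17 ± 0.23. Lyz2, the lysozyme, and Ctss, a lysosomal protease, followed at 1.34 ± 0.24 and 1.17 ± 0.24. The summed level of all 17 markers was 243 to 831 counts per 1000000 total counts in combination hearts and 257 to 832 in vehicle hearts, and 738 to 1210.3 in combination kidneys and 1298 to 2806 in vehicle kidneys, and no marker was at 0 in all libraries of a group.

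Of 23 interferon response genes 0 were called in heart by edgeR and 20 fell in kidney. Among all genes tested 5.17% were called in heart, 15.5% fell in kidney and 10.6% had a higher organ difference. At an unadjusted p under 0.05, 1 was higher and 8 were lower in combination hearts, and DESeq2 and limma-voom called 0 there. The organ difference was higher for 11, among them Psmb8 and Psmb9 of the immunoproteasome at 1.22 ± 0.16 and 1.14 ± 0.17, and Irf1, a transcription factor, at 0.73 ± 0.14. Psmb8 was at 20.5, 28.6 and 34.5 CPM in combination kidneys, against 37.3, 55.9 and 74.5 CPM in vehicle kidneys, without overlap. The macrophage marker sum moved with this list, and its part in the result was not tested. Without the set-aside libraries the organ difference was higher for 8 macrophage markers and 5 interferon genes.

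Of 18 tubule injury genes 1 rose in heart, 15 fell in kidney, and the organ difference was higher for 13. For all genes tested these shares were 3.47%, 15.5% and 10.6%. Clu (ENSRNOG00000016460), clusterin, which damaged tubules secrete, was at 790.0, 1002 and 1117 CPM in combination hearts, against 866, 1026 and 1692 CPM in vehicle hearts. The kidney values were 395, 507 and 668 CPM in combination kidneys, against 806, 1115 and 1986 CPM in vehicle kidneys. The kidney groups were apart and the heart groups overlapped, and the organ difference was 1.14 ± 0.20 (edgeR adjusted p = 6.47e-05). Anxa1, annexin, was at 0.89 ± 0.16. Lcn2 (ENSRNOG00000013973), the injury marker NGAL, was at 33.4, 47.1 and 62.5 CPM in combination kidneys, against 46.0, 90.6 and 149.7 CPM in vehicle kidneys, with overlap. Its organ difference of 0.76 ± 0.25 (edgeR adjusted p = 0.0264) rests on heart levels of at most 5.29 CPM and did not pass without the set-aside libraries (edgeR adjusted p = 0.218).

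In the extracellular matrix list 6 of 29 genes fell in heart, where 1.69% of all genes fell, and 21 in kidney, where 15.5% fell. Between organs the effect was higher for 9 and lower for 1, against 10.6% and 9.36% of all genes. Timp1 (ENSRNOG00000010208), an inhibitor of matrix proteases, was at 2.24, 4.53 and 16.6 CPM in combination hearts, against 3.34, 4.73 and 8.73 CPM in vehicle hearts. Its kidney levels were 12.2, 19.0 and 25.6 CPM in combination kidneys, against 30.2, 39 and 59.0 CPM in vehicle kidneys, without overlap, and the organ difference was 1.42 ± 0.27 (edgeR adjusted p = 0.000204). Sparc, a collagen-binding protein, was at 0.54 ± 0.13, and Col1a1, a chain of the main fibrillar collagen, at 0.97. Genes that fell in both organs included Loxl2, a collagen crosslinking enzyme, by 0.62 in heart and 1.06 in kidney, Tgfb2, a growth factor, and Eln, elastin. Ccn2, connective tissue growth factor, was the one with the lower difference, at -0.65 ± 0.21, from -0.65 in heart and 0.0053 in kidney, and was not called without the set-aside libraries (edgeR adjusted p = 0.439). Leaving out the set-aside libraries, 1 matrix gene fell in heart and 15 in kidney, and the organ difference was higher for 2 and lower for 0.

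Of 16 cell cycle genes 0 were called in heart by edgeR and 12 fell in kidney, with the organ difference higher for 6. For all genes tested these shares were 5.17%, 15.5% and 10.6%. In heart 4 were at an unadjusted p under 0.05, and DESeq2 and limma-voom called 0. Mki67, a proliferation marker, was at 2.65, 5.22 and 9.58 CPM in combination kidneys, against 9.14, 13.2 and 17.2 CPM in vehicle kidneys, and its organ difference was 0.88 ± 0.27. Without the set-aside libraries that difference did not pass (edgeR adjusted p = 0.136), and the organ difference was higher for 1 gene of the list.

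**Figure D3:**
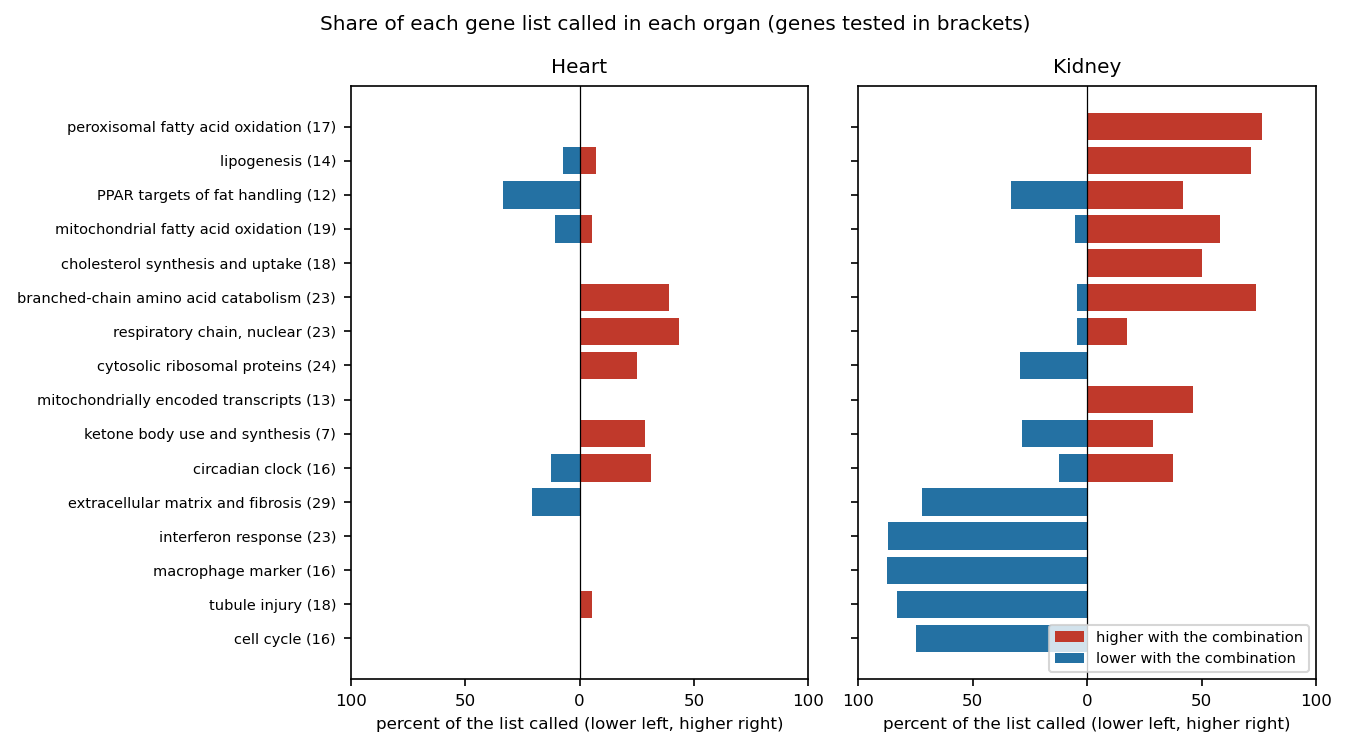
Percent of each gene list called in heart (left) and in kidney (right), with genes higher in combination to the right of 0 in red and genes lower to the left in blue, and the number tested in brackets. Immune, injury and cell cycle lists extend far to the left in kidney and not in heart, the matrix list extends to the left in both, further in kidney, and the branched-chain amino acid list extends to the right in both organs.

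A smaller set of genes changed in heart and not in kidney. Hpd (ENSRNOG00000001338), a dioxygenase of tyrosine breakdown, was at 10.3, 14 and 24.9 CPM in combination hearts, against 4.51, 6.47 and 10.5 CPM in vehicle hearts. In kidney, where it is a proximal tubule gene, it was at 319, 402 and 465 CPM in combination kidneys, against 303, 391.9 and 419.6 CPM in vehicle kidneys. All 10 combination hearts exceeded the vehicle median, and the kidneys overlapped. Its log2 fold change was 1.14 ± 0.11 in heart and 0.079 ± 0.10 in kidney, and the organ difference 1.06 ± 0.15 (edgeR adjusted p = 2.63e-06). The summed proximal tubule markers, 21 in all, stood at 405 to 702 counts per 1000000 total counts in combination hearts and 273 to 498 in vehicle hearts, and their part in this result was not tested. Aqp1, a water channel gene on this list, was alone at 443 to 648 CPM in combination hearts and 297 to 425 CPM in vehicle hearts. CPM and counts per 1000000 total counts are different scales, so these values do not give the share of Aqp1 in the sum. Of the nephron genes used to check the organs, Umod, Slc34a1 and Lrp2 were each at no more than 1.02 counts per 1000000 total counts in every heart.

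Bdh1 (ENSRNOG00000001736), which oxidises the ketone body 3-hydroxybutyrate, was at 26.0, 34.0 and 51.5 CPM in combination hearts, against 12, 23.3 and 31.4 CPM in vehicle hearts. In kidneys the corresponding values were 34.9, 46.6 and 53.0 CPM in combination kidneys, against 37.6, 42.0 and 51.8 CPM in vehicle kidneys. Its organ difference was 0.59 ± 0.16 (edgeR adjusted p = 0.0072), from 0.68 in heart and 0.093 in kidney. Of 7 ketone genes the organ difference was higher for 4 and lower for 0, against 10.6% and 9.36% of all genes tested. The others were Bdh2, at 0.41, and the monocarboxylate carriers Slc16a6 and Slc16a1, at 1.63 and 0.94, both of which fell in kidney. That of Bdh2 did not pass without the set-aside libraries (edgeR adjusted p = 0.421). Vegfa, the endothelial growth factor, rose in heart by 0.33 ± 0.06 and stood at 0.027 ± 0.06 in kidney, with an organ difference of 0.30 ± 0.09 that did not pass without the set-aside libraries (edgeR adjusted p = 0.0761).

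Respiratory chain and ribosomal protein genes moved by small amounts. Over all genes tested 3.47% rose in heart, and 15.2% rose and 15.5% fell in kidney. Of 23 nuclear respiratory chain genes 10 rose in heart and 0 fell, 4 rose and 1 fell in kidney, and the organ difference was higher for 5. For the organ difference this was 21.7% of the list, against 19.9% of all genes. Atp5po, a stalk subunit of ATP synthase, rose by 0.32 ± 0.06 in heart and fell in kidney (-0.21 ± 0.07), and Cox6c, a subunit of cytochrome oxidase, had an organ difference of 0.43 ± 0.11. Of 24 cytosolic ribosomal protein genes 6 rose in heart and 7 fell in kidney, and the organ difference was higher for 14, with Rpl32 at 0.46 ± 0.08. Leaving out the set-aside libraries, 0 genes of either list were called in heart by edgeR, and the organ difference was higher for 2 respiratory chain genes and 9 ribosomal protein genes. Of the 13 transcripts encoded by mitochondria 6 rose in kidney, and the organ difference was lower for 6, with Mt-nd2, a subunit of complex I, at -0.85 ± 0.25. For these transcripts the organ difference was lower for 3 without the set-aside libraries and for 0 by edgeR on each plate alone, with medians of -0.24 on plate 1 and -0.94 on plate 2. Mitochondrial transcripts took a median of 42.8% of counts in combination hearts and 45.2% in vehicle hearts, and 17.0% in combination kidneys and 14.4% in vehicle kidneys. A single combination kidney, replicate 10, was at 32.0%, and the next, replicate 8, at 19.5%. Replicate 10 also held the highest Mt-nd2 level of combination kidneys, at 36154 CPM, against 18403 CPM in the next.

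Some genes rose in both organs. Gstz1 (ENSRNOG00000047708), the enzyme after Hpd's step in tyrosine breakdown by 2 reactions, was at 34.1, 46.7 and 56.9 CPM in combination hearts, against 17.5, 22.5 and 25.9 CPM in vehicle hearts. Levels in kidney were 117, 154 and 188 CPM in combination kidneys, against 64.1, 93.4 and 114 CPM in vehicle kidneys. Neither organ's groups overlapped. It rose by 1.06 ± 0.10 in heart and 0.78 ± 0.10 in kidney, and the organ difference of 0.29 ± 0.14 did not pass (edgeR adjusted p = 0.143). The clock output gene Per3 rose by 0.98 ± 0.16 in heart and 1.01 ± 0.16 in kidney, and Dbp by 1.26 ± 0.24 in heart and 0.86 ± 0.23 in kidney. Over all genes tested 3.47% rose and 1.69% fell in heart, and 15.2% rose and 15.5% fell in kidney. Of 16 clock genes 5 rose and 2 fell in heart, and 6 rose and 2 fell in kidney. None of these heart calls was kept without the set-aside libraries, where 0 clock genes were called in heart by edgeR. Arntl, a core activator of the clock, fell in heart (-0.71 ± 0.15) and stood at 0.0 in kidney to 1 decimal, with an organ difference of -0.71 ± 0.22. The hour at which tissue was taken is not given in the sources used here. Without the set-aside libraries the heart calls of Per3 and Dbp and the organ difference of Arntl did not pass (edgeR adjusted p = 0.0786, 0.23 and 0.292). Aqp1 (ENSRNOG00000011648), the water channel, rose in both and more in kidney, at 443, 479 and 648 CPM in combination hearts, against 297, 356 and 425 CPM in vehicle hearts. Kidney levels were 2475, 3206 and 3673 CPM in combination kidneys, against 923, 1705 and 1969.7 CPM in vehicle kidneys, and the organ difference was -0.56 ± 0.13 (edgeR adjusted p = 0.00224). Its heart rise did not pass without the set-aside libraries (edgeR adjusted p = 0.102).

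Other named genes rose in kidney with no call in heart, while the lists that hold some of them went both ways. Of 11 NRF2 targets 1 rose and 0 fell in heart, and 4 rose and 1 fell in kidney. Of 5 genes of renin, angiotensin and aldosterone 2 rose and 1 fell in kidney. The shares over all genes tested were 3.47% risen and 1.69% fallen in heart, and 15.2% and 15.5% in kidney. Gclc (ENSRNOG00000006302) and Gclm (ENSRNOG00000013409), the 2 subunits of the rate-limiting enzyme of glutathione synthesis, had organ differences of -1.17 ± 0.19 and -1.0 ± 0.18. Gclm was at 6.56, 9.72 and 12.9 CPM in combination hearts, against 6.89, 8.79 and 12.2 CPM in vehicle hearts. The kidney values were 901, 1005 and 1564 CPM in combination kidneys, against 316, 492.5 and 706 CPM in vehicle kidneys, and only there were the groups apart. Gstm1, a glutathione transferase of a family that can share reads, fell in kidney, with an organ difference of 1.00 ± 0.14. Ace (ENSRNOG00000062101), the angiotensin-converting enzyme, was at 45.9, 56.1 and 61.1 CPM in combination hearts, against 43.6, 49.7 and 56.7 CPM in vehicle hearts. Its kidney levels were 30.4, 41.1 and 52.2 CPM in combination kidneys, against 14.4, 21.2 and 23.3 CPM in vehicle kidneys, without overlap, and the organ difference was -0.89 ± 0.11 (edgeR adjusted p = 1.96e-07). Nr3c2, the mineralocorticoid receptor, was at -0.69 ± 0.16. Stc2, a secreted glycoprotein, was at 9.16, 17.9 and 23.9 CPM in combination kidneys, against 0.685, 3.04 and 7.83 CPM in vehicle kidneys, without overlap, with an organ difference of -2.20 ± 0.31 (edgeR adjusted p = 2.61e-06), and its relative Stc1 was at -1.94 ± 0.39. Mt2A, a metallothionein, fell in kidney, with 214, 252 and 296 CPM in combination kidneys, against 310.4, 488 and 814 CPM in vehicle kidneys, and its organ difference was 1.52 ± 0.25. Heart levels were at most 3.32 CPM for Stc1 and 5.92 CPM for Mt2A.

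**Figure D4:**
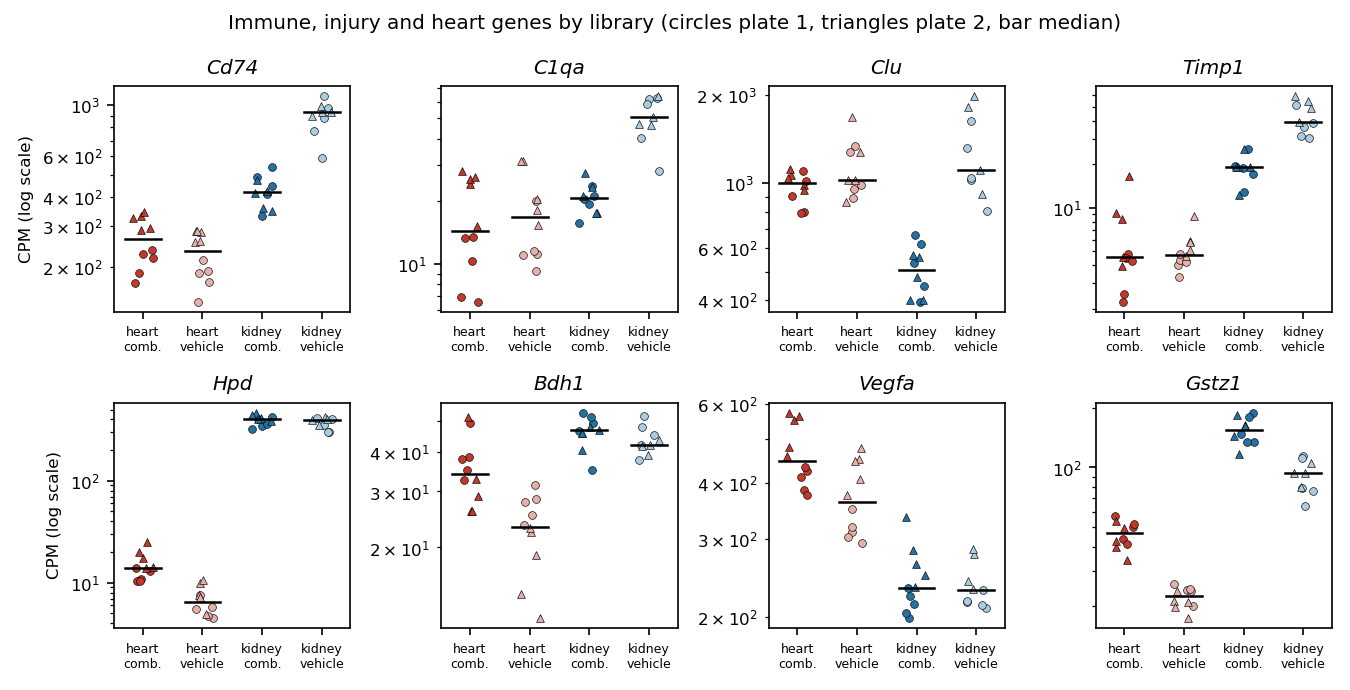
CPM on a log axis of 8 genes in each library of combination hearts, vehicle hearts, combination kidneys and vehicle kidneys, with circles for plate 1, triangles for plate 2 and a bar at the median. Cd74, C1qa, Clu and Timp1 are lower in combination kidneys and overlap in hearts, Hpd, Bdh1 and Vegfa are higher in combination hearts and overlap in kidneys, and Gstz1 is higher with the combination in both. CPM is scaled within each organ.

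Several large organ differences had their extreme values in set-aside libraries, and became smaller without them. Myh4 (ENSRNOG00000049695), the fast myosin of skeletal muscle, had an organ difference of 6.74 ± 1.33, with 4.04, 14.6 and 1013 CPM in combination hearts, against 2.29, 4.41 and 10.0 CPM in vehicle hearts. Combination heart replicate 9 alone held the highest value, and without it the heart log2 fold change was 1.31, against 3.72 with it. Its organ difference was called in each of the 39 fits that left out 1 library, and was 4.48 ± 1.19 without the set-aside libraries (edgeR adjusted p = 0.0155). In kidney Myh4 was at 1.77, 4.84 and 8.37 CPM in combination kidneys, against 1.94, 6.26 and 141 CPM in vehicle kidneys, where 2 vehicle kidneys were above 100 CPM. Myh4 was used to set aside hearts only, so these 2 kidneys also enter the value of 4.48. Without vehicle kidney 6 the kidney log2 fold change was -1.90 (edgeR adjusted p = 0.123), against -3.02 with it. Actc1, the cardiac actin, had an organ difference of -4.25 ± 1.12 with one combination kidney, replicate 7, at 287 CPM, and -0.70 ± 0.24 without the set-aside libraries (edgeR adjusted p = 0.0581). Myl2, the ventricular light chain, stood at -2.75 ± 0.95 with all libraries and -0.21 ± 0.26 without them (edgeR adjusted p = 0.654). Spp1 (ENSRNOG00000043451), osteopontin, a secreted phosphoprotein of macrophages and injured tubules, was at 4.83, 11.6 and 312 CPM in combination hearts, against 5.09, 6.87 and 8.81 CPM in vehicle hearts. In kidneys the corresponding values were 2722, 4364 and 5281 CPM in combination kidneys, against 4819, 7554 and 11014 CPM in vehicle kidneys. Its organ difference was 3.23 ± 0.66 (edgeR adjusted p = 0.000509) and 2.28 ± 0.44 without those libraries (edgeR adjusted p = 0.00113), among them combination heart 6, which held its highest value. Gpnmb, a glycoprotein of lipid-laden macrophages, had its highest heart value in the same library and was at 2.19 ± 0.46 with all libraries and 1.60 ± 0.39 without those set aside (edgeR adjusted p = 0.00833).

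BT2 alone was given to other obese rats, in study A, whose libraries are separate from those above and number 39 with their vehicle group. One BT2 kidney, replicate 2 with 22774 counts, was left out. There 41 genes were called in heart (0.339% of 12112 tested) and 673 in kidney (5.56%), and the organ difference for 114 (0.941%). Of the 114, 66 were also called for the combination in the same direction and 1 in the opposite, where 19.9% of all genes tested were called for the combination. Of the 2321 genes called for the combination and tested in study A, 1329 (57.3%) had the same sign there. The 66 were 2.84% of these 2321. Some of the leading genes had a called organ difference in study A too. Scd2 was at -2.41 ± 0.18 for BT2 (edgeR adjusted p = 7.06e-12), Srebf1 at -1.82 ± 0.19 (edgeR adjusted p = 9.44e-08) and Ehhadh at -1.45 ± 0.20 (edgeR adjusted p = 3.82e-05). The lipogenesis gene Pnpla3 was not called there, at -0.55 ± 0.26 (edgeR adjusted p = 0.34). Ppm1k had no called organ difference with BT2, at -0.053 ± 0.33 (edgeR adjusted p = 0.959), and neither had Cd74 at 0.14 ± 0.12, Clu at 0.17 ± 0.16 or Gclc at 0.0036 ± 0.17.

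The difference between the studies was tested itself, as the organ difference of the combination minus that of BT2, and was called for 651 of 12471 genes (5.22%). In this test the added empagliflozin and the study cannot be told apart. It was called for Ppm1k at -1.58 ± 0.43 (edgeR adjusted p = 0.0237), Crot at -1.19 ± 0.20 (edgeR adjusted p = 0.000103), Ehhadh at -1.04 ± 0.30 (edgeR adjusted p = 0.0287) and Ace at -0.92 ± 0.16 (edgeR adjusted p = 0.000109). On the other side were Cd74 at 1.11 ± 0.17, C1qa at 1.35 ± 0.30 and Timp1 at 1.35 ± 0.35. It was not called for Scd2, at -0.48 ± 0.26 (edgeR adjusted p = 0.251), for Srebf1, at -0.23 ± 0.26, or for Pdk4, at -0.88 ± 0.37.

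**Figure D5:**
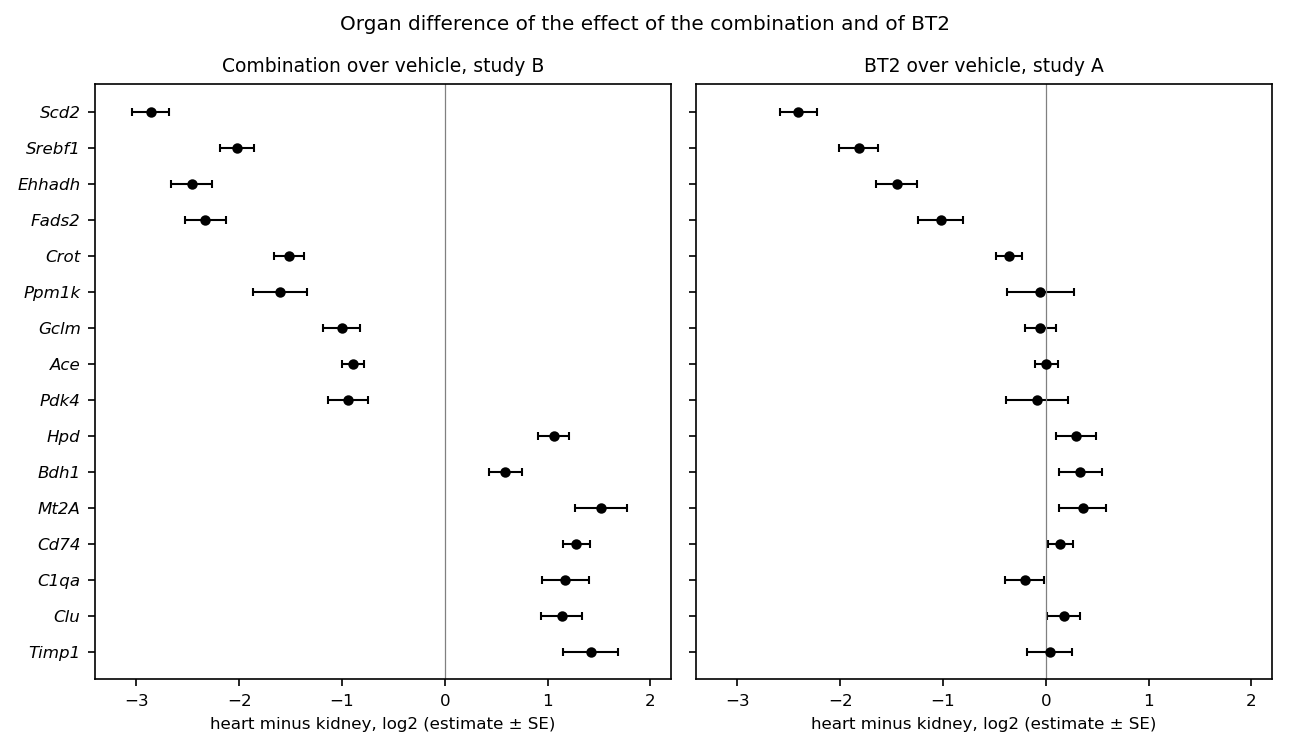
Organ difference (heart minus kidney, log2, estimate ± SE) of 16 genes for combination over vehicle in study B (left) and for BT2 over vehicle in study A (right). Scd2, Srebf1 and Ehhadh are far below 0 in both panels, while Ppm1k, Ace, Pdk4, Cd74 and Clu are away from 0 on the left and near it on the right.

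Set against empagliflozin alone in study B, which leaves out every vehicle library, the combination's organ difference was called for 1429 of 11547 genes (12.4%). Scd2 was at -2.78 ± 0.18 (edgeR adjusted p = 2.81e-14), Ehhadh at -2.29 ± 0.19 (edgeR adjusted p = 5.41e-11), Ppm1k at -1.44 ± 0.33 (edgeR adjusted p = 0.00286) and Cd74 at 1.35 ± 0.15 (edgeR adjusted p = 5.07e-08). Pdk4 was at -0.75 ± 0.17 (edgeR adjusted p = 0.00287). The organ difference was not called in this contrast for Ace at 0.12 ± 0.14, Hpd at 0.34 ± 0.19 or Bdh1 at 0.21 ± 0.19. It shares the combination libraries with the contrast against vehicle, so the values stand side by side only.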

How the data were processed

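RNA was sequenced from hearts and kidneys of obese ZSF1 rats. The authors deposited expected counts per gene, 1 column per sequencing run, and tables with their own log2 fold changes, p-values and scaled counts (a signal, per the file headers). Build mRatBN7.2 is listed in the submitters' processing notes beside DESeq2 1.34.0, Salmon 1.5.2, MultiQC 1.11, STAR 2.7.3a, Picard and FastQC 0.11.9, with no role given, and strand use is not given in the sources used here. In count columns, 82 matched no sample and were not used here.

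The deposited expected counts were summed over the runs of a library and rounded. Genes had to pass edgeR's expression filter in each organ. Counts were scaled by TMM within each organ. edgeR's quasi-likelihood test (R 4.3.3, edgeR 4.0.16, limma 3.58.1) was fitted with a term for plate within organ, and p-values were adjusted by Benjamini-Hochberg over all genes tested, with a call below 0.05. Errors are standard errors of the fit. The series text gives 10 rats per condition, the labels tie no library to a rat, and p-values measure the spread between these libraries. The scripts were tested on simulated data. By the authors' deposited tables, which fit each organ apart, 908 genes were called in heart and 4829 in kidney.

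The contrast and the gene lists were chosen with earlier results of these data known. Named genes were the 8 highest and 8 lowest called organ differences with at least 5 CPM in a group of each organ, the 3 highest and 3 lowest with 5 CPM in 1 organ, the 6 leading genes of each class called in both organs, up to 4 called members of each list by adjusted p, and 17 fixed genes. The other list members printed were chosen after their values were seen. Alternatives were DESeq2 1.42.0, limma-voom, other scalings and filters, no plate term, each plate alone, replicate blocks, the original sequencing run alone, all 12 groups in 1 fit, replicate 8 kept, the set-aside libraries left out, and each of 39 libraries left out in turn. Set aside were kidneys with Actc1 or Alb over 100 times the organ's median. Hearts were set aside with Myh4 over 100 times, or Myl7 over 5 times, the organ's median. Kidneys were not screened for Myh4. Same-numbered libraries were not taken as pairs, since the labels do not say that a number marks a rat. The correlations of their deviations, given below, do not decide it either. Some named genes are not reported here.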

Additional observations from a re-analysis of the deposited data

Results flagged for a closer look

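The organ difference was tested as an interaction and was called by edgeR's quasi-likelihood test for 2325 genes with the combination, for 114 with BT2 alone in study A, for 651 as the combination against BT2 and for 1429 as the combination against empagliflozin. In 100 genes the combination effect was called in both organs in opposite directions.

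For 75 named genes the highest and the lowest library of each of 300 groups was compared with its neighbour by Dixon's criterion, which chance meets in about 1 in 20 groups. It was met 31 times, in 24 genes. Mt-nd2, whose highest combination kidney is given above, was not among the 75 genes compared. Values are CPM, with the next library of the group in brackets.

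Combination heart 6 stood highest for Bcat1 at 6.15 (2.77), Lyz2 at 182 (104), Timp1 at 16.6 (9.15), Mki67 at 7.21 (3.99), Spp1 at 312 (38.5) and Gpnmb at 117 (27.4). Combination heart 9 stood highest for Eno3 at 547 (447), Aqp1 at 648 (549), Myh4 at 1013 (21.2), Tnnt3 at 240.0 (7.55) and Mylpf at 185 (4.05). Vehicle heart 6 stood highest for Ctss at 17.5 (11.3), Timp1 at 8.73 (5.86) and Gpnmb at 12.7 (9.20), and vehicle heart 9 for Per3 at 18.4 (10.9) and Dbp at 19.6 (12.3).

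Combination kidney 3 stood highest for Scd2 at 1719 (1152), Ppm1k at 102 (68.0) and Gclm at 1564 (1225), and lowest for Angptl4 at 12.1 (21.0). Combination kidney 7 stood highest for Actc1 at 287 (1.68), Myl2 at 178 (2.74) and Cry1 at 22.9 (16.1), and combination kidney 8 for Tnnt3 at 3.27 (2.09). Vehicle kidneys stood highest for Bcat1 at 43.2 (24.2) and Stc1 at 24.2 (12.6) in replicate 1, Slc16a1 at 24.0 (18.6) in replicate 4, Tnnt3 at 28.0 (14.5) and Mylpf at 15.0 (7.69) in replicate 6, Tpx2 at 10.4 (7.91) in replicate 9 and Dbp at 36.2 (26.1) in replicate 10.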

How the results depend on the processing

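Same-numbered libraries share a number, and the labels do not say that they share a rat. With the replicate number within organ as a block, 1590 genes were called for the organ difference, 248 in heart and 2925 in kidney, and with a block for heart and kidney of one group and number 1282 for the organ difference. Deviations from group means correlated above 0.1 for 9 of 10 same-numbered pairs between the heart groups and for 6 of 9 between the kidney groups, and between heart and kidney for 6 of 10 pairs of combination and 6 of 9 of vehicle. With plate means also removed these were 1 of 10, 2 of 9, 2 of 10 and 3 of 9. The block gave 42 calls for the BT2 organ difference and 170 for the combination against BT2.

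The counts of the organ difference, heart and kidney stayed within 1.5 times of the values given under DESeq2, limma-voom, both other scalings, both other filters, replicate 8 kept and all 12 groups in 1 fit. Without the plate term 1147 genes were called for the organ difference and 198 in heart. Plate 1 alone gave 950, 89 and 2212 for organ difference, heart and kidney, and plate 2 alone 380, 24 and 1195. Without the set-aside libraries 1194 and 75 were called for the organ difference and in heart, and with the original run alone 397 in heart. The BT2 organ difference was called for 212 genes by DESeq2 and 51 without plate, and the combination against BT2 for 115 without plate. The plate and left-out settings also hold fewer libraries. Leaving out 1 library at a time gave 1980 to 2568 calls for the organ difference, 368 to 703 in heart and 3131 to 3724 in kidney. The heart count was 368 without combination heart 4 and 378 without vehicle heart 5. For named genes, no alternative turned the direction of a called organ difference.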

Other observations

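Some genes of glucose uptake, glycolysis and pyruvate control changed in each organ. Of 21 tested, 7 rose in heart and 0 fell, against 5.17% of all genes called there, 5 rose and 4 fell in kidney, against 30.7% called, and the organ difference was higher for 6 and lower for 2. In heart 1 of them rose when the set-aside libraries were left out. Eno3, the muscle enolase, stood at 0.65 in heart and -0.47 in kidney as log2 fold changes. Of 11 ATF4 target genes of amino acid stress, 1 fell in heart and 8 in kidney, with the organ difference higher for 3. Among all genes tested 1.69% fell in heart, and 15.2% rose and 15.5% fell in kidney. The organ difference was higher for 10.6% of all genes and lower for 9.36%. Of 15 regulators of mitochondrial biogenesis and PPAR activity, 0 were called in heart by edgeR and 7 rose in kidney, with the organ difference lower for 4. These 4 were Rxra, Ppard, Pparg and Gabpa. Their calls were lost without the set-aside libraries and on each plate alone, and in 11, 10, 17 and 25 of the 39 fits that left out 1 library, in the order named. In heart 1 of these regulators was at an unadjusted p under 0.05, and DESeq2 and limma-voom called 0.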
